A study of Mus musculus with 19 samples.

Results

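Keratins are the intermediate filament proteins of epithelial cells. The genes were taken by symbol, as every gene named Krt followed by a number, with or without a final a or b, which leaves out the keratin-associated proteins. This gave 52 keratin genes, each with 1 transcript, of the 24343 gene symbols in the deposited tables. Basal, luminal and stromal cells had been sorted by flow cytometry from mouse anterior prostates, and their RNA was sequenced with a low-input method. The first genotype, called Lgr5-DTR here, is Lgr5-DTR-eGFP, in which a diphtheria toxin receptor linked to eGFP is expressed from the Lgr5 gene, so that toxin removes cells that use that gene, and these mice had been given the toxin. The second genotype is wild type. There were 19 libraries. Lgr5-DTR contributed 3 of basal, 3 of luminal and 4 of stromal cells, while 3 of each population were wild type. The Lgr5-DTR mice came from another laboratory, while the C57BL/6 mice named in the labels were purchased. The labels do not state that the purchased C57BL/6 mice were the wild type group, nor the age of the mice, nor whether wild type mice received toxin, nor whether each library came from a separate animal. Genotype, toxin and source of the mice therefore cannot be told apart, and each p-value measures only the spread between these libraries.

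A keratin filament is built from pairs of 1 type I (acidic) and 1 type II (basic) chain, and the pair in use marks the kind of epithelium and its state. In the prostate, basal cells are known for Krt5 with Krt14 and luminal cells for Krt8 with Krt18, while Krt19 and Krt7 are typical of ductal epithelium. Krt6a, Krt6b, Krt16 and Krt17 are known in skin as the keratins that epithelial cells switch on after injury or in rapid growth.

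The deposited values are FPKM, which are fragments per transcript length and per total of mapped fragments, so levels can be compared between genes per length of transcript. The depth, taken as coverage multiplied by length over all transcripts, was 5.26 to 9.38 gigabases per library, and 9209 to 10819 genes reached 1 FPKM. Lgr5, the gene that carries the receptor, averaged 0.916 FPKM in Lgr5-DTR stromal libraries and 44.2 FPKM in wild type stromal libraries, and was under 2 FPKM on average in every epithelial group. Every log2 difference below was taken on log2(FPKM + 1), where the added 1 shrinks the differences of low genes. A gene was tested when at least 3 libraries of the comparison reached 1 FPKM, and was called at an adjusted p of 0.05 over all genes tested.

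Of the 52 keratins, 28 are type I and 24 are type II. On mm10, 27 of the type I genes lie between 99233098 and 100269871 on chromosome 11, and the 24 type II genes lie between 101349571 and 102004342 on chromosome 15. Krt18, the exception, is a type I gene that sits next to the type II genes, at 102028216 to 102032026 on chromosome 15. In these sorts 26 keratins reached 1 FPKM in at least 1 library, and the other 26 never did, the highest of them reaching 0.929 FPKM. The 26 that never reached it came mostly from the keratins of hair shafts, of root sheaths and of the upper layers of stratified epithelia. A group mean of 5 FPKM was reached by 18 keratins.

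**Figure D1:**
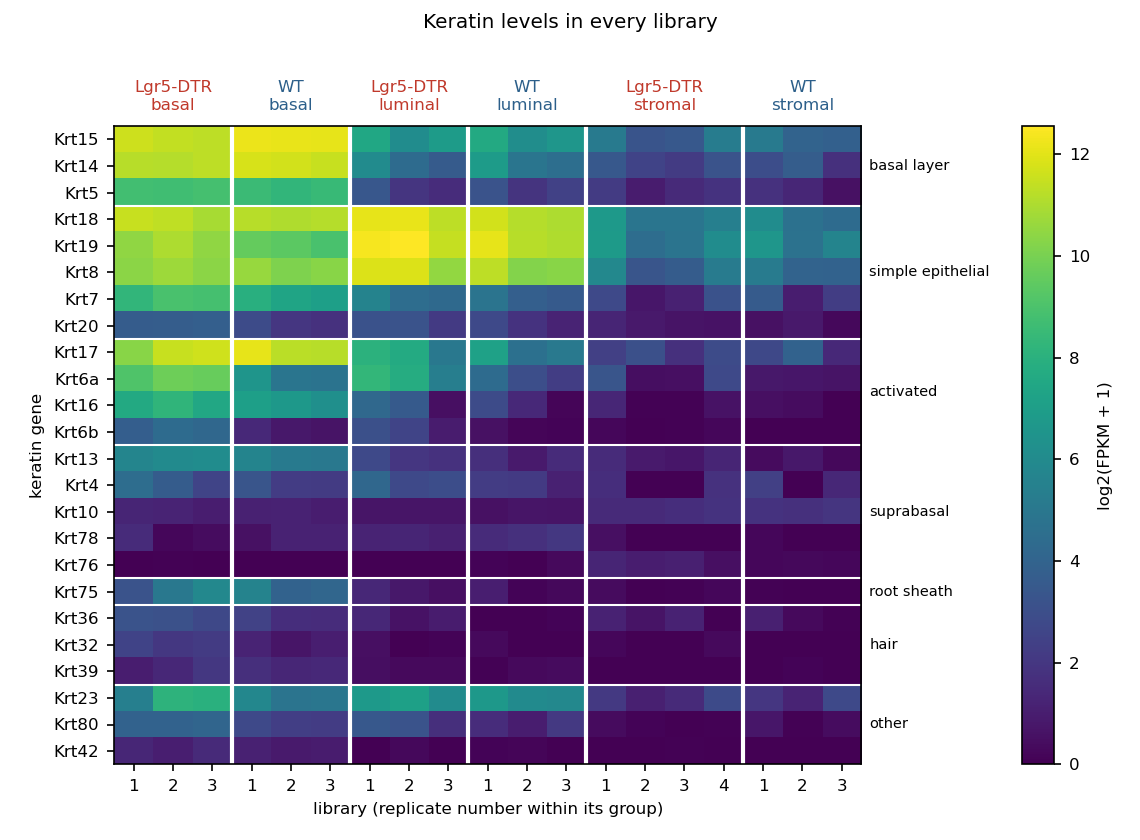
Level of the 24 keratins described by name in each of the 19 libraries, as log2(FPKM + 1), with keratins in rows by role and libraries in columns by population and genotype, Lgr5-DTR left of wild type. Brighter colours are higher levels. Krt6a and Krt6b are brighter in the Lgr5-DTR than in the wild type columns of basal and luminal cells, and the stromal columns are dark for nearly every keratin.

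The sorted populations differed widely in which keratins they held. In basal cells of both genotypes Krt15, a type I keratin of basal layers, had the highest mean level of all keratins, with 2802 ± 283 FPKM in Lgr5-DTR and 4526 ± 138 FPKM in wild type (SD, n = 3 each). In Lgr5-DTR basal cells it was followed by Krt18 (2488 ± 513 FPKM), Krt17 (2467 ± 1036 FPKM) and Krt14 (2389 ± 118 FPKM), and these 4 means lay within the spread of Krt17 and Krt18. In wild type basal cells the order was Krt15, Krt14 (3246 ± 337 FPKM), Krt17 (3057 ± 1111 FPKM) and Krt18 (2255 ± 128.5 FPKM), and Krt14 and Krt17 did not differ beyond their spread. In luminal cells Krt19, Krt18 and Krt8 followed each other in both genotypes. They made up 94.3% of keratin FPKM in Lgr5-DTR and 95.1% in wild type. By mean level Krt6a had rank 7 among keratins in Lgr5-DTR and rank 10 in wild type basal cells, and rank 4 in Lgr5-DTR and rank 9 in wild type luminal cells.

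Marker sums followed the labels of the sorts, though not every listed marker did. The summed level of 10 basal markers was 581 to 804 FPKM in basal libraries and at most 199.5 FPKM elsewhere. Of these, Ngfr was higher in luminal than in basal libraries of both genotypes, and Igfbp5 was highest in stromal libraries. The summed level of 5 Schwann cell markers, Ngfr among them, was 19.7 to 127 FPKM in luminal libraries and at most 1.6 FPKM elsewhere. The summed level of 10 luminal markers was 9546 to 23920 FPKM in luminal libraries, 1528 to 2619 FPKM in basal libraries and at most 437 FPKM in stromal libraries. The summed level of 8 fibroblast markers was 2775 to 5845 FPKM in stromal libraries and at most 882 FPKM elsewhere. In every basal library Cdh1, Epcam and Cd24a were the largest members of the luminal sum. Cdh1 was 580 to 933 FPKM in basal and 141 to 443 FPKM in luminal libraries. Pbsn was 30.9 to 173 FPKM in basal, 8.28 to 347 FPKM in stromal and 7500 to 22090 FPKM in luminal libraries. The luminal sum is thus no measure of luminal RNA in basal libraries. In bulk samples of this kind, fewer cells of a type and less RNA per cell cannot be told apart, and this holds for every difference below.

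Basal and luminal cells of the same genotype were set against each other for a first account of the keratins. In Lgr5-DTR mice 17 of the 23 keratins tested were called higher in basal than in luminal cells and 1 lower, where 56.4% of all genes were called (18.2% higher and 38.2% lower in basal cells, or 3226 genes higher and 2895 lower after quantile normalization). In wild type mice 11 of 19 were called higher and 3 lower, where 68.8% of all genes were called (28.2% higher and 40.5% lower). In Lgr5-DTR mice 4 of the 23 passed the filter through basal cells alone, as did 2 of the 19 in wild type mice. The keratins called between these sorts were mostly higher in basal cells.

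Krt14 and Krt5 showed the widest differences among the keratins of basal layers. Krt14, a type I keratin and partner of Krt5, had 2375, 2279 and 2513 FPKM in basal and 66.7, 20.2 and 11.4 FPKM in luminal cells of Lgr5-DTR mice, a log2 difference of 6.52 (SE 0.53, limma adjusted p 4.98e-05). In wild type mice the log2 difference of Krt14 was 6.22 (SE 0.63, limma adjusted p 0.000333). Krt5, its type II partner, differed by 6.45 in Lgr5-DTR and 5.92 in wild type mice, and Krt15 by 4.62 in Lgr5-DTR and 5.35 in wild type mice, all called by limma. Of the stress keratins, Krt17 was higher in basal cells by 4.25 in Lgr5-DTR and 5.87 in wild type mice, and Krt16 by 5.02 in Lgr5-DTR and 5.19 in wild type mice. Krt6a was called higher in basal cells of Lgr5-DTR mice (log2 difference 2.36, limma adjusted p 0.0167), a call lost without Lgr5-DTR basal replicate 2 or 3 (limma adjusted p 0.0597 and 0.0578). In wild type mice its difference of 2.18 was just outside the threshold (limma adjusted p 0.0513), inside it in 1 of the 6 left-out fits, without wild type luminal replicate 1 (2.76, limma adjusted p 0.012), and inside it in 9 of the 12 other alternatives, so the calls do not show that the genotypes differ.

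Fewer keratins leaned to luminal cells. Krt19 was lower in basal than in luminal cells in both genotypes, by a log2 difference of -1.51 in Lgr5-DTR (SE 0.33, limma adjusted p 0.00519) and -2.14 in wild type mice (SE 0.27, limma adjusted p 3.79e-05). Krt18 and Krt8, the other main simple keratins, were abundant in both sorts. Krt18 reached 1923 to 2926 FPKM in Lgr5-DTR basal libraries and 2492 to 4451 FPKM in Lgr5-DTR luminal libraries, and neither Krt18 nor Krt8 was called between basal and luminal cells of either genotype. Both were called lower in Lgr5-DTR basal cells without Lgr5-DTR luminal replicate 3 (log2 differences -0.85 and -1.41, limma adjusted p 0.0259 and 0.00189), and Krt8 also after quantile normalization (-0.90, limma adjusted p 0.0306). Krt23, a type I keratin of little known function, was lower in basal than in luminal cells of wild type mice (log2 difference -1.0, limma adjusted p 0.00855, or 0.163 with all 6 groups in 1 fit), and was not called in Lgr5-DTR mice, where its difference was 0.50 (limma adjusted p 0.55), or 1.37 without Lgr5-DTR basal replicate 1 (limma adjusted p 0.00789).

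Stromal cells held little keratin RNA. All keratins together came to 360, 88.4, 96.9 and 231 FPKM in Lgr5-DTR stromal libraries and 274.9, 116.2 and 118.8 FPKM in wild type stromal libraries, against 14060 to 18250 FPKM in basal and 5706 to 15000 FPKM in luminal libraries. The stromal library with the most keratin RNA in each genotype was also the one with the most luminal marker RNA, at 313 FPKM in Lgr5-DTR and 437 FPKM in wild type, and the part of carried-over epithelial RNA in these values was not tested. Basal cells exceeded stromal cells in 21 of 23 keratins tested in Lgr5-DTR (31.6% of all genes called higher and 58.5% called in all) and 17 of 19 in wild type mice (28.9% higher and 58.9% in all). Of these, 6 of the 23 in Lgr5-DTR and 7 of the 19 in wild type mice passed the filter through basal cells alone and had to differ that way. Luminal cells exceeded stromal cells in 15 of 19 keratins in Lgr5-DTR (42.3% of all genes called higher and 63.1% in all) and 12 of 14 in wild type mice (38.4% higher and 66.2% in all). The filter was passed through luminal cells alone by 2 of the 19 in Lgr5-DTR and 3 of the 14 in wild type mice, and through stromal cells alone by 2 in Lgr5-DTR and 1 in wild type mice, so their direction follows from the filter. In Lgr5-DTR mice Krt76 went the other way, with log2 differences of -0.96 for basal and -0.97 for luminal minus stromal cells, both called. Krt76 passed both filters through stromal cells alone, so its direction follows from the filter. Krt10, the type I keratin of the upper layers of epidermis, also went the other way. It averaged 2.10 FPKM in stromal cells, 1.29 FPKM in basal cells and 0.641 FPKM in luminal cells of Lgr5-DTR mice, and 2.58 FPKM in stromal, 1.17 FPKM in basal and 0.552 FPKM in luminal cells of wild type mice. The excess of Krt10 in stromal over basal cells was called in wild type (limma adjusted p 0.00629) and not in Lgr5-DTR mice (limma adjusted p 0.0781), and its excess over luminal cells was called in both. No luminal library reached 1 FPKM of Krt10, so its direction against luminal cells follows from the filter.

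In basal cells keratins of several roles differed between the genotypes. Krt6a and Krt6b, the type II stress keratins, rose most among keratins, and Krt16, their type I partner, rose less. Of the simple keratins Krt7, Krt19 and Krt20 rose, while Krt15 was the only keratin called lower in Lgr5-DTR basal cells. In all, 9 of 23 keratins tested were called higher and 1 lower, where 11% of all 9755 genes tested were called (6.5% higher and 4.46% lower). The groups did not overlap for 13 of the 23, with 11 higher and 2 lower in Lgr5-DTR, where 31.1% of all genes did not overlap (17.5% higher). The median log2 difference was 0.67 over the 23 keratins and 0.02 over all genes tested, and 19 of the 23 differences were above 0. All 23 had at least 1 library at 1 FPKM in both genotypes.

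**Figure D2:**
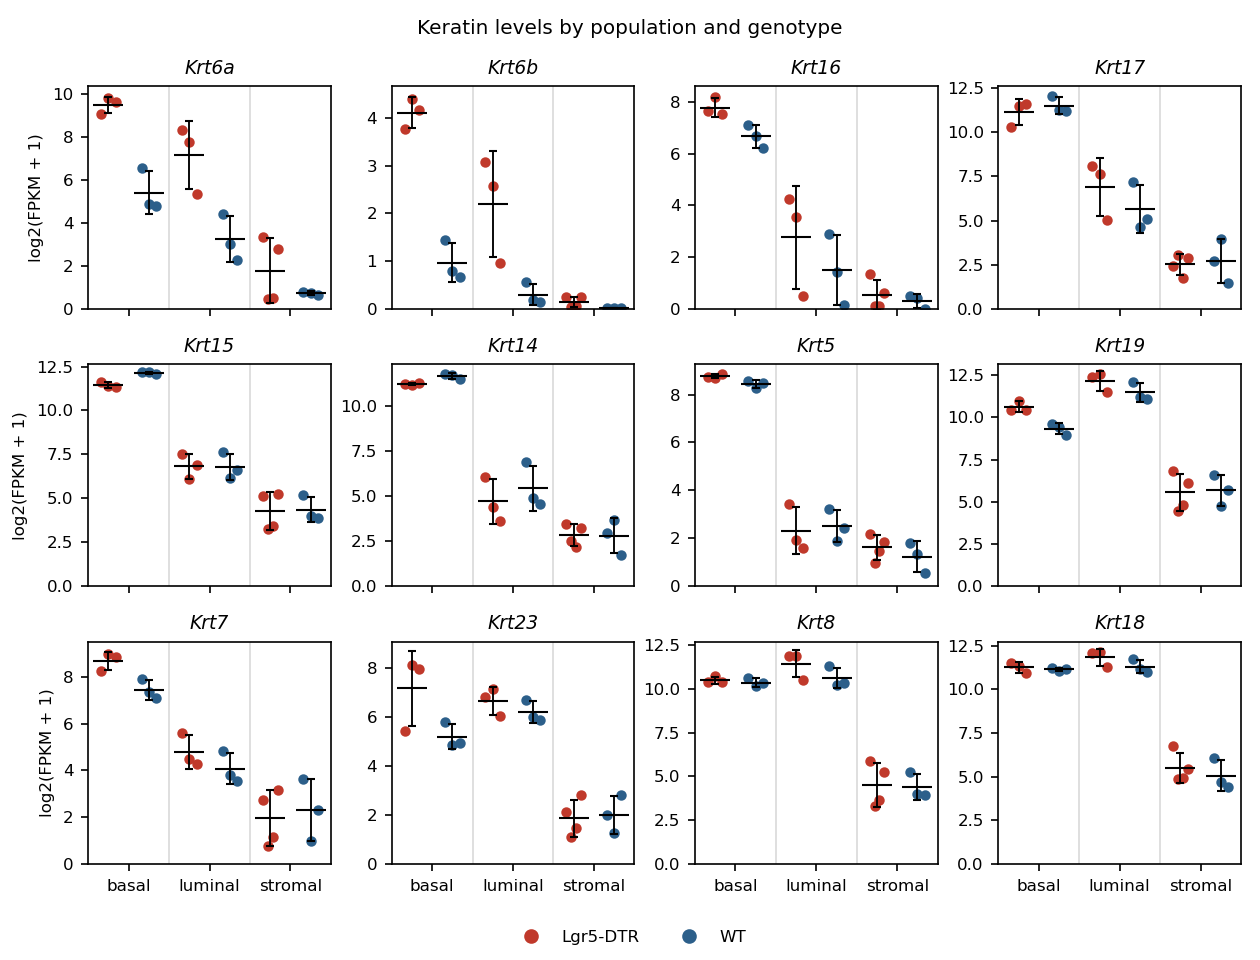
Level of 12 keratins as log2(FPKM + 1) in each library, 1 panel per keratin, with populations along the horizontal axis and Lgr5-DTR (red) left of wild type (blue). Dots are libraries and bars are the mean ± SD. In basal cells the Lgr5-DTR dots of Krt6a, from 541 to 891 FPKM, lie apart from the wild type dots, from 26.3 to 94.1 FPKM, while those of Krt8 and Krt18 overlap.

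Krt6a and Krt6b lie close together at 101689928 to 101694305 and 101676023 to 101680289 on chromosome 15 of mm10. Their coding sequences, of 1662 and 1665 bases, are 97.8% identical over the aligned bases, with 37 mismatches. The stretch below, coding bases 787 to 876 counted from the start codon, is shown because it holds 12 of these differences, which are the letters a read needs to be placed on 1 of the 2 genes. The letters are from the GENCODE transcripts of both genes, and capitals mark the bases that differ.
Krt6a: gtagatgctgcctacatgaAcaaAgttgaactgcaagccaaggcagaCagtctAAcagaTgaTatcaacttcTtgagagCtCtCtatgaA
Krt6b: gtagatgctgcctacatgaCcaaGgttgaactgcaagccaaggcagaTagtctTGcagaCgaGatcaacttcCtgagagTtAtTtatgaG
Of all windows of 50 bases in the Krt6a transcript, 43.6% also occur in Krt6b, so how reads were divided between the 2 genes is uncertain. Counting every other gene, Krt6b included, 62.0% of the Krt6a windows are shared.

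Krt6a was 541, 891 and 788 FPKM in Lgr5-DTR basal libraries, against 94.1, 28.4 and 26.3 FPKM in wild type basal libraries. The lowest Lgr5-DTR library was several times above the highest wild type library. The means were 739.8 ± 180.0 FPKM in Lgr5-DTR and 49.6 ± 38.6 FPKM in wild type (SD, n = 3 each), a ratio of 14.9, and the log2 difference was 4.09 (SE 0.45, limma adjusted p 0.00206). Krt6b was 12.6, 20.3 and 17.1 FPKM in Lgr5-DTR basal libraries, against 1.70, 0.739 and 0.587 FPKM in wild type. Its groups did not overlap either, and its log2 difference was 3.15 (SE 0.25, limma adjusted p 0.000611). In every library of Lgr5-DTR basal and luminal cells Krt6a stood 42.4 to 46.1 times above Krt6b, and in wild type basal and luminal cells 36.3 to 55.3 times. How much of the Krt6b value came from Krt6a reads was not tested.

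Krt16 and Krt17 are the type I chains that pair with Krt6a. Krt16 was 199.5, 294 and 185 FPKM in Lgr5-DTR basal libraries, against 136, 104 and 74.2 FPKM in wild type, with no overlap. Its log2 difference was 1.12 (SE 0.26, limma adjusted p 0.0263), and 37.6% of its transcript windows are shared with other genes, mostly Gm11597. Krt17 was 1278, 2947 and 3175 FPKM in Lgr5-DTR, against 4337, 2480.5 and 2352 FPKM in wild type basal libraries. The groups of Krt17 overlapped, with 1 low Lgr5-DTR and 1 high wild type library, and its log2 difference was -0.36 (95% interval -1.23 to 0.50, limma adjusted p 0.579). Krt17 was the most abundant of the 4 stress keratins in every basal library, and the 4 together held 14.4 to 27.3% of keratin FPKM in Lgr5-DTR and 17.1 to 25.0% in wild type basal libraries. Krt6a alone held 4.81% of the mean keratin level in Lgr5-DTR and 0.313% in wild type basal cells.

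Among the simple keratins, Krt19 lacks most of the tail that other keratins carry and is typical of ducts and of prostate luminal cells. It was 1399, 2033 and 1404 FPKM in Lgr5-DTR basal libraries, against 775, 679 and 499 FPKM in wild type. All Lgr5-DTR libraries were higher, and the log2 difference was 1.31 (SE 0.22, limma adjusted p 0.0088). Krt7, a type II keratin of ducts and urothelium, was 303, 499 and 466 FPKM in Lgr5-DTR, against 239, 162 and 135 FPKM in wild type basal libraries. It did not overlap, and its log2 difference was 1.25 (SE 0.26, limma adjusted p 0.0191). Krt20, a type I keratin of intestine and superficial urothelium, was 11.8, 12.1 and 13.0 FPKM in Lgr5-DTR, against 6.28, 3.02 and 2.5 FPKM in wild type basal libraries (log2 difference 1.5, limma adjusted p 0.00963). Krt8 and Krt18, the pair that defines simple epithelium, overlapped between the genotypes. Krt8 was 1314, 1674 and 1334 FPKM in Lgr5-DTR, against 1559, 1126 and 1269 FPKM in wild type basal libraries (log2 difference 0.13, 95% interval -0.29 to 0.55). Of the windows of the Krt8 transcript, 29.7% are shared with other genes, mostly Krt8-ps. Krt18 differed by 0.12 (95% interval -0.31 to 0.56). These intervals leave out a rise as large as that of Krt19 and leave room for smaller ones in either direction.

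The keratins of basal layers pointed the other way or were not called. Krt15 was 3111, 2739 and 2555 FPKM in Lgr5-DTR basal libraries, against 4632, 4577 and 4370.2 FPKM in wild type. The groups did not overlap, and the log2 difference was -0.70 (SE 0.16, limma adjusted p 0.0252). Krt14 was 2375, 2279 and 2513 FPKM in Lgr5-DTR, against 3546, 3310.0 and 2882 FPKM in wild type. Its groups did not overlap either, but its log2 difference of -0.44 was not called (95% interval -0.80 to -0.08, limma adjusted p 0.116). Krt5 was 430.1, 417 and 461 FPKM in Lgr5-DTR, against 381, 307 and 352 FPKM in wild type, all higher in Lgr5-DTR and not called (log2 difference 0.33, limma adjusted p 0.191). The partners Krt14 and Krt5 thus stood at a ratio of 5.45 to 5.52 in Lgr5-DTR and 8.18 to 10.8 in wild type basal libraries.

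Some keratins known mainly outside simple glands were also higher. Krt80, a type II keratin of differentiating epithelia, was 14.6, 14.2 and 15.9 FPKM in Lgr5-DTR basal libraries, against 5.93, 4.08 and 3.75 FPKM in wild type (log2 difference 1.53, SE 0.18, limma adjusted p 0.00223). The Krt80 gene overlaps the microRNA gene Mir1941. Krt32, a hair cuticle keratin, was 4.76, 3.11 and 3.61 FPKM in Lgr5-DTR, against 1.37, 0.6253 and 1.09 FPKM in wild type (log2 difference 1.25, limma adjusted p 0.00993). Krt36, a keratin of hair, nail and tongue, was 8.21, 7.75 and 5.55 FPKM in Lgr5-DTR, against 4.52, 2.15 and 2.02 FPKM in wild type (log2 difference 1.11, limma adjusted p 0.03). None of these 3 overlapped between the genotypes, and all were low beside the main keratins.

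Of the suprabasal keratins, 0 of 4 tested were called. Krt13, which pairs with Krt4 in the lining of the mouth and oesophagus, was 52.4, 64.5 and 68.6 FPKM in Lgr5-DTR, against 49.9, 35.1 and 31.6 FPKM in wild type basal libraries, with no overlap (log2 difference 0.67, limma adjusted p 0.0625). Krt4 was 21.5, 11.4 and 4.97 FPKM in Lgr5-DTR, against 8.99, 3.73 and 3.52 FPKM in wild type, with overlap (log2 difference 0.99, limma adjusted p 0.228). Krt10 and Krt78 differed by 0.08 and -0.26 and were not called. Krt75, a keratin of the companion layer around the hair shaft, was 8.29, 31.8 and 56.3 FPKM in Lgr5-DTR, against 48.6, 14.7 and 16.7 FPKM in wild type, spread so widely that its log2 difference of 0.11 had an interval of -1.41 to 1.64. The low-level keratins Krt42 and Krt39 differed by 0.29 and 0.00 and were not called.

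Lgr5-DTR basal replicate 1 had the lowest level of its group for several keratins and the highest for others, such as Krt4, Krt15, Krt18, Krt32 and Krt36. Krt23 was 41.5, 275 and 249 FPKM in Lgr5-DTR basal libraries, against 54.3, 27.9 and 29.9 FPKM in wild type, with replicate 1 inside the wild type range (log2 difference 1.96, SE 0.66, limma adjusted p 0.0954). Without that library the log2 difference of Krt23 was 2.84 (limma adjusted p 0.000144), and that of Krt17 was 0.06. The same library had the lowest Krt6a, Krt7 and Krt75 of the 3, and also the lowest summed level of 6 proximal luminal markers, at 2880 FPKM beside 5886 and 5104 FPKM.

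**Figure D3:**
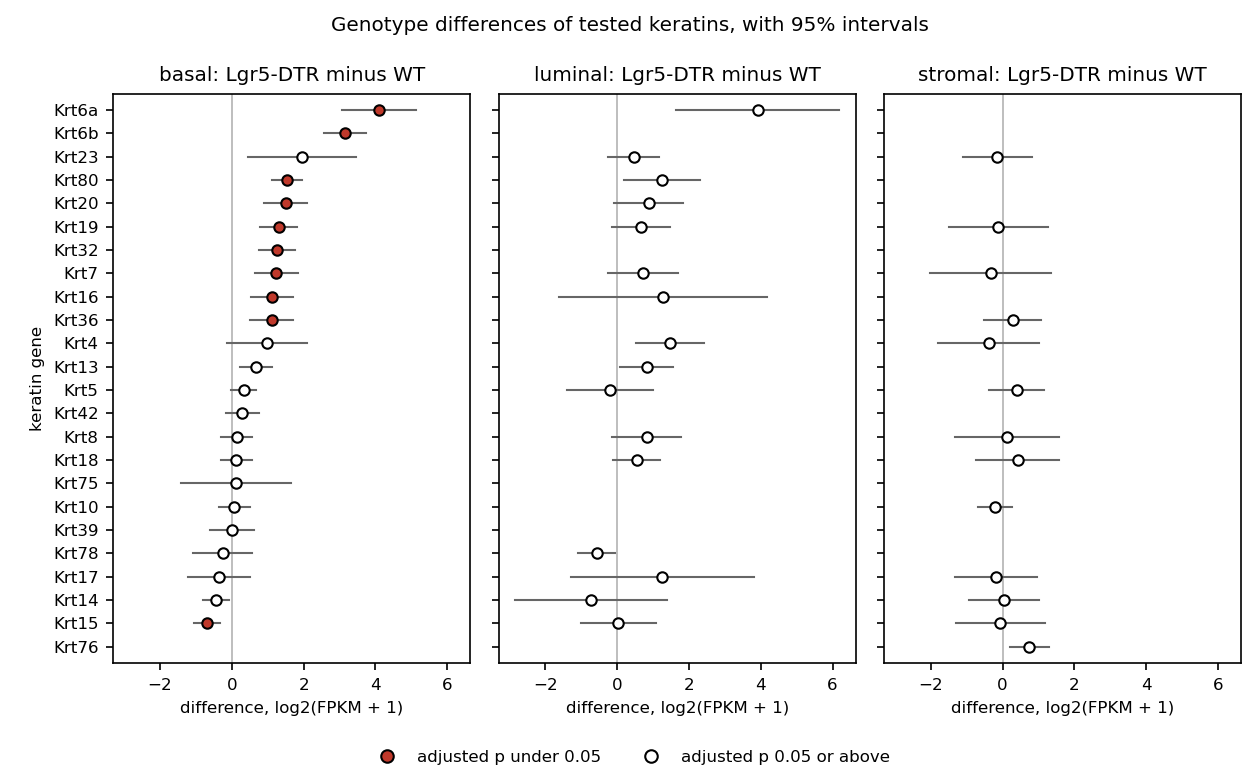
Log2 difference of each tested keratin, Lgr5-DTR minus wild type, with its 95% interval, in basal, luminal and stromal cells. Filled red points were called at an adjusted p of 0.05 over all genes tested. The 10 called keratins are all in basal cells, and Krt6a has the largest difference in both basal (4.09) and luminal cells (3.92).

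How firmly the 10 basal calls stood differed between the keratins. Krt6a, Krt6b and Krt80 were called in each of the 6 fits that left out 1 library and in each of 11 other alternatives. Krt19 was called in each of the 6 and in 9 of the 11 alternatives. Of the left-out fits, Krt20 and Krt32 lost the call in 1, without wild type basal replicate 2 (limma adjusted p 0.0549 and 0.0533), and Krt20 was called in 10 of the 11 other alternatives. Krt7 was called in 2, and Krt16 and Krt36 in 3 each, of the 6 left-out fits. All 3 lost the call without Lgr5-DTR replicate 2, wild type replicate 2 or wild type replicate 3, with limma adjusted p up to 0.0926, 0.111 and 0.13, and Krt7 also without Lgr5-DTR replicate 3. Krt15 was called in 1, the fit without Lgr5-DTR replicate 1 (limma adjusted p 0.00688), with adjusted p up to 0.121 in the other 5, though its difference stayed between -0.77 and -0.63 in all 6. After quantile normalization the difference of Krt15 was -0.27 (limma adjusted p 0.255). The number of keratins called was 12 without Lgr5-DTR replicate 1, 6 without Lgr5-DTR replicate 2, 4 without wild type replicate 2 and 6 without wild type replicate 3. It was 6 with all 6 groups in 1 fit, where Krt7, Krt15, Krt16 and Krt19 lost the call. The deposited tables fell into 2 sets by a low-data flag on some transcripts, none of them a keratin. With this set as a covariate 9 keratins were called higher and 0 lower, Krt15 losing the call (limma adjusted p 0.0578). No called basal difference changed sign under any alternative tried, the scalings included.

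Lists of cell type markers were also compared between the basal groups. The summed level of 6 proximal luminal markers was 2880 to 5886 FPKM in Lgr5-DTR and 926 to 1528 FPKM in wild type basal libraries, and Clu and Ly6a among them were called higher, by log2 differences of 3.51 and 1.37. The summed luminal markers were 1840 to 2619 FPKM in Lgr5-DTR and 1528 to 1789 FPKM in wild type basal libraries, with 2 of 8 called higher and Spink1 listed at 0 in all basal libraries. Cdh1, Epcam and Cd24a were the largest members of this sum. The summed fibroblast markers were 313 to 638 FPKM in Lgr5-DTR and 732 to 882 FPKM in wild type basal libraries, with both tested members called lower. Nearly all of this sum was Dcn, at 313 to 636 FPKM in Lgr5-DTR and 730 to 880 FPKM in wild type. Col3a1, the other member tested, reached 1 FPKM in wild type alone, so its direction follows from the filter. The rest of the fibroblast list stayed under 1 FPKM in every basal library. The basal markers summed to 672 to 804 FPKM in Lgr5-DTR and 581 to 645 FPKM in wild type basal libraries, with Cd44 and Col17a1 called higher and Trp63, Dst and Igfbp5 called lower of 9 tested. Of the urothelial markers Upk3a, which encodes a plaque protein of the bladder lining, was 5.02, 8.0 and 3.96 FPKM in Lgr5-DTR basal libraries, against 0, 0 and 0.199 FPKM in wild type (log2 difference 2.60, limma adjusted p 0.00108), the 1 call among 3 tested, while the summed list was 13.9 to 24.2 FPKM in Lgr5-DTR and 10.5 to 18.6 FPKM in wild type. Upk3a reached 1 FPKM in Lgr5-DTR basal libraries alone, so its direction follows from the filter too. The macrophage markers summed to 11.7 to 16.7 FPKM in Lgr5-DTR and 6.90 to 10.4 FPKM in wild type, with 1 of 3 called higher, and the smooth muscle markers to 10.6 to 13.8 FPKM in Lgr5-DTR and 32.3 to 41.8 FPKM in wild type, with 1 of 3 called lower. The part of these other transcripts in the keratin differences was not tested.

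The sum of all keratins was 14060, 16830 and 15250 FPKM in Lgr5-DTR basal libraries, against 18250, 14990 and 14350 FPKM in wild type, and the ranges overlapped. Its makeup differed more. Simple keratins held 38.9 ± 4.56% of the sum in Lgr5-DTR and 27.9 ± 1.19% in wild type basal cells, while the keratins of basal layers held 36.9 ± 4.92% in Lgr5-DTR and 51.5 ± 4.10% in wild type (SD, n = 3 each), and neither pair of ranges overlapped. Type I chains made up 78.9 to 81.2% of the sum in Lgr5-DTR and 87.2 to 89.0% in wild type basal libraries. Per transcript length, type I RNA thus exceeded type II RNA 3.73 to 4.31 times in Lgr5-DTR and 6.80 to 8.09 times in wild type basal cells. The called keratins came from both gene clusters. On chromosome 11, 5 were higher, 1 lower and 7 not called, and on chromosome 15, 4 were higher and 6 not called.

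**Figure D4:**
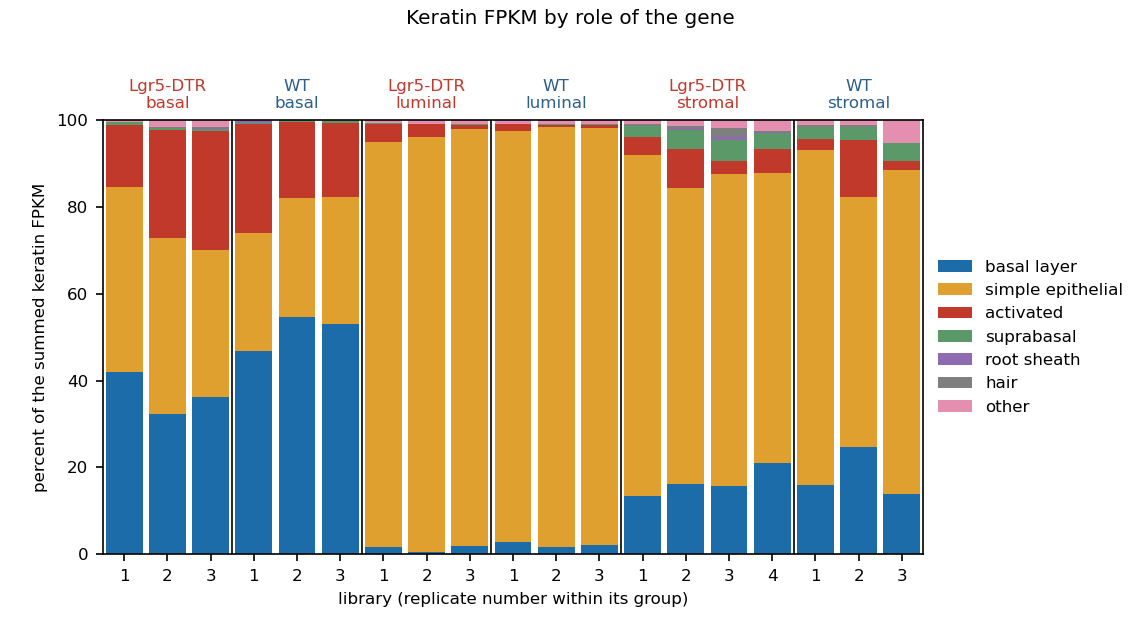
Percent of the summed keratin FPKM held by each role group in each library, stacked to 100, with Lgr5-DTR libraries left of wild type within each population. In basal cells the simple keratins take 33.7 to 42.3% in Lgr5-DTR and 27.1 to 29.2% in wild type libraries, and in luminal cells they take over 93% in both.

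Promoters were read for the called keratins that have an entry in the RefSeq promoter table (build GRCm38.p6), which are 4 of the 9 called higher, to show what is upstream of genes that moved together. Each line gives the 100 bases before the annotated start on the gene's own strand. Capitals mark a TATA-like match, TATAAA or ATAAAA (which overlap as TATAAAA), within 50 bases of the start. Krt7 lies at chr15:101412303-101412402 (plus strand), Krt20 at chr11:99438154-99438253, Krt32 at chr11:100088270-100088369 and Krt36 at chr11:100105627-100105726 (all minus strand).
Krt7: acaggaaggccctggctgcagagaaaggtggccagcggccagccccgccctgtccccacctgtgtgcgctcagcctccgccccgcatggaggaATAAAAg
Krt20: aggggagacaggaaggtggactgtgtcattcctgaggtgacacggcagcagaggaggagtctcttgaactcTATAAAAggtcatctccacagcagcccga
Krt32: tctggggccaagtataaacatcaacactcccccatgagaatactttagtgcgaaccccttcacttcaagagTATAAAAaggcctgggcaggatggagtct
Krt36: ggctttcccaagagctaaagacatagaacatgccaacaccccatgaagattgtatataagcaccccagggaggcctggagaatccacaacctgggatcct
The match begins 29 bases before the start in Krt20 and Krt32 and 7 bases before it in Krt7, and Krt36 has no match in the window. The annotated start of Krt32 lies 43 bases from that of the deposited transcript. Of the 34 keratins with an annotated start within 100 bases of the deposited transcript, 23 (67.6%) hold the match on their own strand and 0 on the other, against 4.13% and 2.2% of all 32851 promoters in the table. The motif was chosen after keratin promoters had been seen, and a match is a description of letters, not a site.

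In luminal cells no keratin was called between the genotypes by limma. Of 16 keratins tested, 5 had an unadjusted p under 0.05 (Krt4, Krt6a, Krt13, Krt78 and Krt80), where 3.14% of all 10524 genes tested were called (2.62% higher and 0.513% lower). After trimmed-mean scaling 211 genes were called higher and 208 lower, and still no keratin. The groups did not overlap for 4 of the 16, with Krt4, Krt6a and Krt13 higher and Krt78 lower in Lgr5-DTR, where 27.1% of all genes did not overlap (17.4% higher). The median log2 difference was 0.77 over the 16 and 0.10 over all genes tested.

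Krt6a again had the largest difference. It was 317, 218 and 39.8 FPKM in Lgr5-DTR luminal libraries, against 20, 7.14 and 3.82 FPKM in wild type. Even the lowest Lgr5-DTR library was above every wild type one, but the spread within Lgr5-DTR was wide, and the log2 difference of 3.92 was not called (SE 0.92, 95% interval 1.64 to 6.19, limma adjusted p 0.0871). It was called without Lgr5-DTR luminal replicate 3 (log2 difference 4.81, limma adjusted p 0.0299) and without wild type luminal replicate 1 (log2 difference 4.5, limma adjusted p 0.0408), and over all alternatives its adjusted p ran between 0.00101 and 0.2895. Without Lgr5-DTR luminal replicate 3, Krt8 and Krt80 were called as well (log2 differences 1.27 and 1.79, limma adjusted p 0.0393 and 0.012). Krt6b was too low for the filter in luminal cells, with 7.48, 4.94 and 0.934 FPKM in Lgr5-DTR, against 0.471, 0.137 and 0.105 FPKM in wild type libraries. Its groups did not overlap, and the exact two-sided permutation p was 0.1, the smallest that 3 against 3 allows.

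Krt14, as a basal cell keratin, was set beside the other keratins within each library. Krt14 itself was 66.7, 20.2 and 11.4 FPKM in Lgr5-DTR luminal libraries, against 116, 28.4 and 22.6 FPKM in wild type (log2 difference -0.73, limma adjusted p 0.641), and its mean was not higher in Lgr5-DTR. The ratio of Krt6a to Krt14 was 3.5 to 10.8 in Lgr5-DTR and 0.17 to 0.252 in wild type luminal libraries, and 0.228 to 0.391 in Lgr5-DTR and 0.00859 to 0.0266 in wild type basal libraries. The ratio of Krt5 to Krt14 was 0.142 to 0.175 in Lgr5-DTR and 0.0726 to 0.194 in wild type luminal libraries, and 0.181 to 0.184 in Lgr5-DTR and 0.0927 to 0.122 in wild type basal libraries. The luminal and basal ranges of Krt6a to Krt14 did not overlap in either genotype, while those of Krt5 to Krt14 overlapped in wild type. For Krt16 the ratio was 0.0368 to 0.535 in Lgr5-DTR and 0.00508 to 0.0601 in wild type luminal libraries, and 0.0738 to 0.129 in Lgr5-DTR and 0.0257 to 0.0385 in wild type basal libraries. For Krt17 it was 2.76 to 9.95 in Lgr5-DTR and 0.851 to 1.47 in wild type luminal libraries, and 0.538 to 1.29 in Lgr5-DTR and 0.749 to 1.22 in wild type basal libraries. For Krt7 it was 0.719 to 1.63 in Lgr5-DTR and 0.235 to 0.481 in wild type luminal libraries, and 0.128 to 0.219 in Lgr5-DTR and 0.0467 to 0.0674 in wild type basal libraries. The part of basal RNA in the luminal values was not tested.

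Both keratins of the oral and oesophageal lining were higher in all Lgr5-DTR than in all wild type luminal libraries. Krt4 was 17.3, 5.74 and 6.95 FPKM in Lgr5-DTR, against 3.67, 3.34 and 1.25 FPKM in wild type luminal libraries (log2 difference 1.48, limma adjusted p 0.0914). Krt13 was 5.94, 3.01 and 2.47 FPKM in Lgr5-DTR, against 2.28, 0.845 and 1.89 FPKM in wild type (log2 difference 0.82, limma adjusted p 0.178). Neither was called. Krt78, a type II suprabasal keratin, was 1.36, 1.45 and 1.13 FPKM in Lgr5-DTR, against 1.89, 2.34 and 3.16 FPKM in wild type luminal libraries (log2 difference -0.57, limma adjusted p 0.189). Krt80 was 9.87, 8.37 and 2.27 FPKM in Lgr5-DTR, against 1.99, 0.984 and 3.17 FPKM in wild type, with overlap (log2 difference 1.25, limma adjusted p 0.164).

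The main luminal keratins varied between libraries in step. Krt19 was 5408, 6023 and 2836 FPKM in Lgr5-DTR luminal libraries, against 4412, 2394 and 2151 FPKM in wild type. Krt18 was 4378, 4451 and 2492 FPKM in Lgr5-DTR, against 3374, 2290.2 and 2032 FPKM in wild type. Krt8 was 3805, 3814 and 1472 FPKM in Lgr5-DTR, against 2518, 1209.8 and 1281 FPKM in wild type. In each of these Lgr5-DTR replicate 3 was the lowest of its group, wild type replicate 1 was the highest of its group, and the groups overlapped, with log2 differences of 0.67, 0.54 and 0.82 that were not called (limma adjusted p 0.293, 0.294 and 0.29). The keratin sum, which these keratins nearly make up, was likewise lowest in Lgr5-DTR replicate 3 and highest in wild type replicate 1 within each group. It was 14660, 15000 and 7106 FPKM in Lgr5-DTR and 10950, 6117 and 5706 FPKM in wild type luminal libraries. Krt16 was 18.1, 10.8 and 0.418 FPKM in Lgr5-DTR, against 6.43, 1.71 and 0.115 FPKM in wild type luminal libraries. Krt16 and Krt17 (log2 differences 1.28 and 1.26) were lowest in Lgr5-DTR replicate 3 within that group, and were not called. Krt15 and Krt5 differed by 0.03 and -0.19. Krt7, Krt20 and Krt23 differed by 0.72, 0.88 and 0.47, with overlap.

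Summed levels of several marker lists did not overlap between the luminal groups. The proximal luminal markers summed to 4087, 3176 and 1168 FPKM in Lgr5-DTR luminal libraries, against 604, 151 and 196 FPKM in wild type, in the same order of libraries as Krt6a within Lgr5-DTR. The luminal markers summed to 9546 to 11320 FPKM in Lgr5-DTR and 19140 to 23920 FPKM in wild type. Most of this sum was Pbsn, at 7500 to 9647 FPKM in Lgr5-DTR and 16880 to 22090 FPKM in wild type. Tmprss2 and Dpp4 were also lower in all Lgr5-DTR libraries, and the other listed luminal markers overlapped. The basal markers overlapped, at 91.1 to 184 FPKM in Lgr5-DTR and 57.6 to 107 FPKM in wild type. The macrophage markers summed to 20.8 to 82.2 FPKM in Lgr5-DTR and 11.5 to 18.3 FPKM in wild type, with 1 of 5 called higher, the fibroblast markers to 61.4 to 130.4 FPKM in Lgr5-DTR and 38.0 to 57.7 FPKM in wild type, and the Schwann cell markers to 47.6 to 127 FPKM in Lgr5-DTR and 19.7 to 35.7 FPKM in wild type. Of the fibroblast list only Col1a1, Col1a2 and Col3a1 were higher in all Lgr5-DTR than in all wild type luminal libraries. Dcn leaned the other way with overlap, at 7.38 to 15.3 FPKM in Lgr5-DTR and 11.9 to 34.6 FPKM in wild type. Lum, Pdgfra, Dpt and Clec3b stayed under 1 FPKM in every luminal library. The part of the transcripts of these marker lists in the luminal keratin values was not tested.

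In stromal cells 0 of 13 keratins tested were called by limma, where 1.17% of all 10689 genes were called (0.0655% higher and 1.1% lower). Krt76, a type II keratin of the palate, was the only keratin with an unadjusted p under 0.05 and the only 1 of the 13 whose groups did not overlap, where 11.2% of all genes did not overlap (1.8% higher). It was 1.43, 1.01, 1.13 and 0.445 FPKM in Lgr5-DTR stromal libraries, against 0.154, 0.2 and 0.177 FPKM in wild type, and it passed the filter through Lgr5-DTR alone (log2 difference 0.74, SE 0.25, limma adjusted p 0.237, or 0.00864 with all 6 groups in 1 fit). Outside stromal cells Krt76 stayed at or below 0.265 FPKM. Krt6a in stromal cells was 9.08, 0.365, 0.427 and 5.86 FPKM in Lgr5-DTR, against 0.729, 0.669 and 0.5682 FPKM in wild type, with wild type inside the Lgr5-DTR range (exact two-sided permutation p 0.571).

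The genotype differences in basal and luminal cells were compared directly, over the 16 keratins tested in both. None of the 16 was called by limma and none had an unadjusted p under 0.05, where 4.26% of all genes tested were called. For Krt6a the difference between the basal and the luminal genotype effect was 0.18 (SE 1.10, 95% interval -2.25 to 2.61, limma adjusted p 0.943), an interval too wide to call the effects alike. For Krt15 it was -0.73 (limma adjusted p 0.413), for Krt19 0.63 (limma adjusted p 0.437) and for Krt17 -1.62 (limma adjusted p 0.436). Krt23 had the lowest adjusted p, with a difference of 1.5 (limma adjusted p 0.325), which became 2.37 (limma adjusted p 0.0107) without Lgr5-DTR basal replicate 1. Between basal and stromal cells 0 of 12 keratins were called (2.98% of all genes, with Krt23 alone at an unadjusted p under 0.05), and between luminal and stromal cells 0 of 10 (2.51% of all genes, and 0 at an unadjusted p under 0.05). A basal change that was called and a luminal change that was not are therefore not shown to differ.

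Genes that anchor, regulate or modify keratin filaments were followed beside the keratins. Of 14 genes that link filaments to cell junctions, 5 were called higher and 1 lower in Lgr5-DTR basal cells, with a median log2 difference of 0.35, where 6.5% of all genes were called higher and 4.46% lower and their median was 0.02. Plec, which encodes the cross-linker plectin, averaged 65.9 FPKM in Lgr5-DTR and 29.6 FPKM in wild type basal cells (log2 difference 1.12, limma adjusted p 0.00304). The desmosomal plakophilin Pkp3 averaged 224 FPKM in Lgr5-DTR and 108 FPKM in wild type (1.04, limma adjusted p 0.00304), and Pkp1 averaged 52.3 FPKM in Lgr5-DTR and 25.5 FPKM in wild type (1.01, limma adjusted p 0.00886). Envoplakin (Evpl) and the hemidesmosomal collagen Col17a1 also rose, by 1.28 and 0.98. Dst, which encodes the hemidesmosomal linker dystonin, fell by 1.12 on the log2 scale, to 47.8 FPKM in Lgr5-DTR, against 105 FPKM in wild type basal cells (limma adjusted p 0.0111). Of the desmosomal cadherins Dsc2 and Dsc3 rose, by 1.04 and 1.00, of 4 tested and 7 listed.

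Of 12 regulators of epithelial keratins, 3 were called higher and 2 lower in Lgr5-DTR basal cells, beside the same 6.5% and 4.46% of all genes. Grhl3, a transcription factor of the skin barrier, averaged 12.9 FPKM in Lgr5-DTR and 0.916 FPKM in wild type (log2 difference 2.85, limma adjusted p 0.000575). Ovol1, a factor of epithelial differentiation, averaged 105 FPKM in Lgr5-DTR and 41.8 FPKM in wild type (1.31, limma adjusted p 0.00182), and Klf5 rose by 0.69. Trp63, which encodes the basal cell factor p63, averaged 15.4 FPKM in Lgr5-DTR and 37.8 FPKM in wild type basal cells (log2 difference -1.26, limma adjusted p 0.00448), and Nfe2l2, of the oxidative stress response, fell by 0.70 on the log2 scale. Of 12 enzymes and chaperones that act on keratins 1 was called, the ubiquitin ligase gene Stub1 (0.61, limma adjusted p 0.0245), a share near the 11% of all genes called in either direction. Of the other intermediate filament genes, Nes (1.08), Lmna (0.65) and Lmnb2 (0.64) rose, of 7 tested and 16 listed, where 6.5% of all genes were called higher.

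In luminal cells 0 of the 14 linkers were called, while of 10 regulators Ovol1 (log2 difference 1.36, limma adjusted p 0.019) and Cebpb (0.93, limma adjusted p 0.0358) rose, and of 11 modifiers the transglutaminase gene Tgm1 rose (1.61, limma adjusted p 0.0164). Of all genes 3.14% were called in luminal cells, so that 0 of 14 is near the background. In stromal cells none of 8 linkers, 7 regulators or 8 modifiers was called, and the peripherin gene Prph fell by 1.46 on the log2 scale (limma adjusted p 0.0277), the 1 call among 11 other intermediate filament genes tested, where 1.17% of all genes were called.

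The keratins outside the filter were compared by exact permutation, with no p below the smallest that the design allows. In basal cells Krt34, a hair keratin, averaged 0.109 FPKM in Lgr5-DTR and 1.03 FPKM in wild type, and in luminal cells Krt36 averaged 1.03 FPKM in Lgr5-DTR and 0.0391 FPKM in wild type (exact two-sided permutation p 0.1 in both). In stromal cells Krt13 averaged 1.23 FPKM in Lgr5-DTR and 0.411 FPKM in wild type (exact two-sided permutation p 0.1143), where 4 against 3 allows 0.0286 at best.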

How the data were processed

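RNA of flow-sorted cells was amplified by a SMART-Seq low-input kit and sequenced as Nextera XT libraries on an Illumina HiSeq, per the labels. Each deposited FPKM is of 1 transcript. The submitters' processing notes name TopHat2, Cufflinks and mm10, and the versions are not given in the sources used here. Deposited coverage, a signal per transcript, was used here only for depth. The authors' FPKM confidence limits and status flags, per the file headers, served only to find the 7 libraries with low-data flags and the failed or capped estimates. Counts were not used here, so no counting interval was computed and the number of libraries limits the precision. Cufflinks divides reads between similar transcripts by estimation, so near-identical genes are uncertain.

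FPKM were summed per gene symbol (34535 transcripts, 24343 symbols), and log2(FPKM + 1) was tested on all genes with at least 3 libraries at 1 FPKM, with trended, robust empirical Bayes in limma 3.58.1 (statmod 1.5.0, R 4.3.3) and Benjamini-Hochberg adjustment over all of them. Genes whose estimate had failed or been capped were left out. There were 12 comparisons: the genotypes in each population, the differences between those effects, and the populations within each genotype. Keratins outside the filter with a group mean of 1 FPKM or more were compared by exact two-sided permutation. Keratins are named where called in any comparison or where a group mean reached 5 FPKM. Of the other lists, genes are named where called, and up to 4 with the smallest p where more were called. Col17a1, Dst, Klf5 and Krt34 fall outside this rule and were named after their values had been seen. The keratins, role lists, marker lists and tests were chosen with earlier results of these data known. The fits were tested on simulated data. Transcript windows and coding bases came from GENCODE M21, promoters from RefSeq. Python 3.11.15, pandas 2.3.3, numpy 2.4.6, scipy 1.17.1, Biopython 1.88 and matplotlib 3.10.9 were used. Alternatives were other pseudocounts (0.1 and 5), no filter, quantile or trimmed-mean scaling, no trend, all 6 groups in 1 fit, the highest transcript per gene, failed or capped genes kept, the low-data set as a covariate, a replicate block and each library left out.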

Additional observations from a re-analysis of the deposited data

How the results depend on the processing

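Counts were not used here, so the limit comes from the 3 or 4 libraries per group. The number of genes called in the genotype comparisons depended on single libraries. With each library left out in turn it ran between 337 and 2264 in basal (1069 with all), 9 and 927 in luminal (330) and 45 and 229 in stromal cells (125), and between 140 and 787, 118 and 385, and 109 and 263 for the differences basal minus luminal (388), basal minus stromal (268) and luminal minus stromal (232). Keratins called ran between 4 and 12 in basal, 0 and 3 in luminal and 0 and 1 for the differences basal minus luminal and basal minus stromal. Without the filter, 492 genes were called in basal, 4 in luminal and 36 in stromal cells, and 3 keratins for basal minus stromal. Quantile normalization gave 217 in luminal, 77 in stromal and 81 for luminal minus stromal, and trimmed-mean scaling 76 in stromal and 96 for luminal minus stromal. All 6 groups in 1 fit gave 871 in luminal and 366 in stromal cells, with 6 keratins in basal, 2 in luminal and 1 in stromal cells. Without trend and robust settings 1 luminal keratin was called. The low-data covariate gave 750 genes in luminal, 49 in stromal and 647 for basal minus luminal, with 1 luminal keratin, and 8 keratins for wild type luminal minus stromal (13 without it). The causes were not tested.

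Not all same-numbered samples deviated together (correlations of -0.526 to -0.23 in basal, -0.124 to 0.38 in luminal and -0.0457 to 0.486 in stromal cells, and for basal with luminal libraries of 1 title number 0.0961 to 0.115 in Lgr5-DTR and -0.0359 to 0.225 in wild type), so the numbers were not taken as pairs. A replicate block on sample number gave 213 genes in basal, 755 in luminal and 1051 in stromal cells, with 4, 4 and 1 keratins. A replicate block on the title number gave 639 for basal minus luminal and 457 for basal minus stromal. For basal minus luminal, wild type Krt6a was called with both blocks (limma adjusted p 2.24e-09 and 0.0332) and Lgr5-DTR Krt8 with the title block (-1.0, limma adjusted p 0.0388), and basal Krt20 lost its call with the sample block (0.0587).

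Of the values of single keratins under the alternatives, 1492 kept direction and side of the threshold, 39 passed it newly, 60 lost it and 33 changed sign, none of them a called value. In basal cells Krt39 (0.00) was -0.039 with a pseudocount of 0.1, -0.042 after quantile normalization and -0.28 to 0.24 with a library left out, and Krt8 (0.13) was -0.093 after quantile normalization. With a library left out, Krt17 (-0.36) ran between -0.60 and 0.059, Krt18 (0.12) between -0.0063 and 0.30, and Krt75 (0.11) between -0.46 and 0.85. In luminal cells Krt15 (0.03) was -0.14 with trimmed-mean scaling and -0.31 to 0.44 with a library left out, and Krt5 (-0.19) was 0.24 with the low-data covariate and -0.75 to 0.18 with a library left out. For basal minus luminal in Lgr5-DTR, Krt4 (0.26) ran between -0.21 and 0.75, and Krt78 (-0.47) was 0.096 after quantile normalization. In wild type Krt18 (-0.15) was 0.050 after quantile normalization, 0.12 with trimmed-mean scaling and -0.30 to 0.062 with a library left out, where Krt20 (0.27) ran between -0.077 and 0.67 and Krt8 (-0.27) between -0.46 and 0.069. For the difference basal minus luminal, Krt6a (0.18) was -0.094 after quantile normalization and -0.72 to 0.76 with a library left out.

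Scaling moved the balance of calls. Genes called higher and lower were 276 and 54 in luminal cells, 144 and 73 after quantile normalization and 211 and 208 with trimmed-mean scaling. For the difference basal minus luminal they were 99 and 289, and 176 and 228 after quantile normalization. Without scaling, with quantile normalization and with trimmed-mean scaling, in that order, they were 188 and 80, 147 and 119, and 142 and 116 for basal minus stromal, 1937 and 4070, 3226 and 2895, and 3289 and 2954 for Lgr5-DTR basal minus luminal, and 4825 and 2371, 3485 and 3202, and 3254 and 3251 for Lgr5-DTR luminal minus stromal cells. The median of all genes was -0.28 for Lgr5-DTR basal minus luminal and 0.43 for Lgr5-DTR luminal minus stromal cells, and 0.08 and 0.07 after quantile normalization. Keratins called were 10 higher and 0 lower in basal cells after quantile normalization and 9 and 1 with trimmed-mean scaling.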
